A study of Mus musculus with 10 samples.

Results

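MHC class I and immunoproteasome transcripts were followed here in crypts of the mouse jejunum with and without the transcription factor Arid3a. The members were 10 genes chosen by name as a class I presentation set, out of 54838 genes in the expression tables, and all 10 passed the filter on low counts, which 14719 genes passed. They were the heavy chains H2-K1, H2-D1 and H2-T3, the light chain B2m, the peptide loading genes Tap1, Tap2 and Tapbp, the immunoproteasome subunits Psmb8 and Psmb9, and the transactivator Nlrc5. A class I molecule shows peptides from inside the cell to CD8+ T cells. Peptides cut by the proteasome are pumped into the endoplasmic reticulum by the TAP transporter, tapasin helps to load them onto a heavy chain bound to beta-2-microglobulin, and the loaded complex travels to the surface. Interferon raises many of these genes together, in part through NLRC5, and swaps the constitutive catalytic subunits of the proteasome for inducible ones. In the gut lining, enterocytes carry class I molecules on their basolateral side, next to the T cells that sit between epithelial cells.

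Each library held the crypt RNA of a single mouse, 5 of them WT and 5 Arid3a cKO, and both genotypes had received tamoxifen on 3 days, the first of them 1 month earlier. The cKO animals carried VillinCre-ERT2 and floxed Arid3a alleles, so that the deletion was driven in Villin-expressing epithelium and not in immune or stromal cells. The labels give the controls as WT without their Cre or flox status, and give no age or sex. Animal codes carried 1 prefix in WT and another in cKO mice. What the prefix stands for is not given in the sources used here, and whatever it marks cannot be told apart from genotype.

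Libraries held 27050455 to 31053622 expected counts, and the lowest cKO total exceeded the highest WT one. Levels are given as CPM, counts scaled to a common library size and normalised by TMM, a scaling that assumes most genes to be unchanged. Differences were tested with edgeR's quasi-likelihood test, adjusted by the Benjamini-Hochberg method over all 14719 genes, with a threshold of 0.05. Arid3a itself, a low transcript in crypts, had a mean of 2.42 ± 0.40 CPM in the WT group against 0.673 ± 0.35 CPM after deletion (SD, n = 5), and the libraries did not overlap. Markers of the epithelium were abundant in all libraries, with a summed level of 6158 to 7987 CPM over 7 genes. Of all genes tested, 28.3% passed the threshold, 15.6% as higher and 12.7% as lower in cKO crypts, and the median log2 fold change was -0.03.

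Of the 10 members, 6 were higher in cKO crypts and 0 were lower by this test, beside 15.6% of all genes higher. H2-K1, H2-D1, H2-T3, B2m, Tap2 and Tapbp passed, whereas Tap1, Nlrc5, Psmb8 and Psmb9 did not. The same counts, 6 and 0, were given by DESeq2, by limma-voom and by edgeR at an unadjusted p under 0.05. All 10 log2 fold changes were above 0, beside 45.9% of all genes, and their median was 0.39. However, those of Psmb9 and Nlrc5 turned negative when libraries were scaled by size alone. The libraries of the genotypes did not overlap in 3 members, H2-K1, H2-T3 and B2m, beside 12.0% of all genes with every cKO library above every WT library, and 0 members had the reverse, beside 7.63% of all genes (19.6% in either direction). Only 2 members, H2-T3 and B2m, still passed when WT replicates 3 and 4 were left out together, and over all genes the calls then fell from 4167 to 2143.

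**Figure D1:**
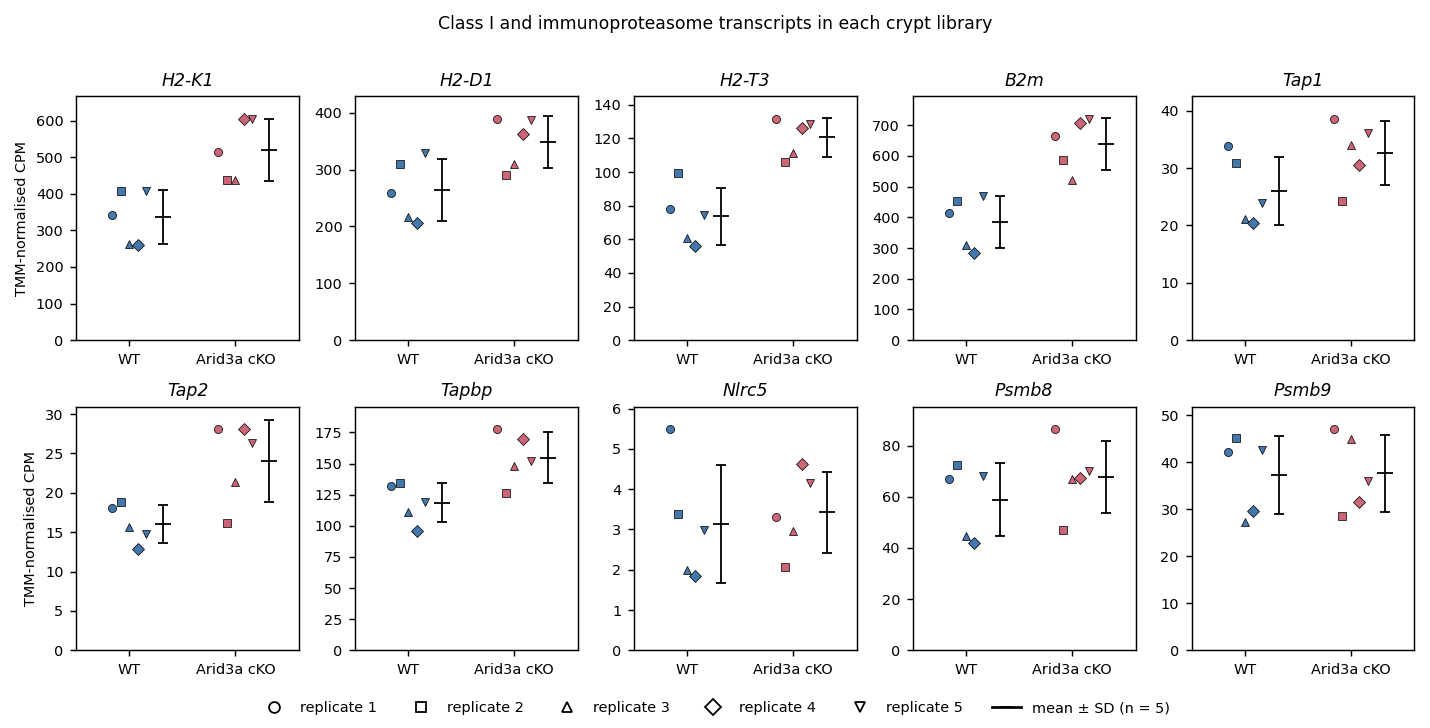
TMM-normalised CPM (y axis, from 0) of each of the 10 members in the 5 WT (blue) and 5 Arid3a cKO (red) crypt libraries, with the shape giving the replicate number and the bar the mean ± SD. For H2-K1, H2-T3 and B2m all cKO points lie above all WT points, for Psmb9 and Nlrc5 the 2 genotypes cover about the same range, and WT replicates 3 and 4 are the 2 lowest WT points in 9 of the 10 panels.

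Of the 10 genes, 8 lie on chromosome 17, where the mouse MHC is, and the loading and immunoproteasome genes Psmb9, Tap1, Psmb8 and Tap2 follow each other between positions 34181987 and 34216321 (GRCm38). Psmb9 and Tap1 are transcribed away from each other from a shared stretch. The sequences before the start sites (RefSeq, GRCm38.p6) are printed for H2-K1, H2-D1 and B2m, which encode the 3 chains of the classical complexes. The Tap1 and Psmb9 interval is printed too, because its 2 genes had log2 fold changes of 0.33 and 0.01. A difference between these 2 genes was not shown, since their ratio was not among those that differed between the genotypes. RefSeq windows were held for 8 of the 10 members, and Tap2 and Nlrc5 had no entry. Capitals mark 4 motifs, searched on both strands: a kappaB site (GGGA, any base, T, any base, CCC), the interferon-stimulated response element (GAAA, any 2 bases, GAAA), the core letters TGACG of a CRE, and the CCAAT box.
H2-K1, chr17:34000348-34000597, minus strand: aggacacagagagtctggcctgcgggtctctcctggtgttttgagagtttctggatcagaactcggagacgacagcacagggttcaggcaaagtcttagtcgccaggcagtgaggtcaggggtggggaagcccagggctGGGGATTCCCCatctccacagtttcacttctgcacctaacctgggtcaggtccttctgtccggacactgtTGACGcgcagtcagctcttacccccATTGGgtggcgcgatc
H2-D1, chr17:35262844-35263093, plus strand: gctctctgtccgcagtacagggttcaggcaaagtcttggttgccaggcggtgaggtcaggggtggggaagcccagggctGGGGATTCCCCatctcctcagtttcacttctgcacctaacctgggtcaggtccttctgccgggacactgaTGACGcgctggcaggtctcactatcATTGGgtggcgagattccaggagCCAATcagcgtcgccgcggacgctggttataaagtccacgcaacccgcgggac
B2m, chr2:122147437-122147686, plus strand: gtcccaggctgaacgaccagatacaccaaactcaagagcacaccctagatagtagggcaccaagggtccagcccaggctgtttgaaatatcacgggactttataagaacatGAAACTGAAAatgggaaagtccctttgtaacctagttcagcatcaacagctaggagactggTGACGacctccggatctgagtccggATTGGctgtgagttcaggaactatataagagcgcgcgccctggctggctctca
Tap1 and Psmb9, chr17:34187331-34187555, plus strand, Psmb9 to the left and Tap1 to the right: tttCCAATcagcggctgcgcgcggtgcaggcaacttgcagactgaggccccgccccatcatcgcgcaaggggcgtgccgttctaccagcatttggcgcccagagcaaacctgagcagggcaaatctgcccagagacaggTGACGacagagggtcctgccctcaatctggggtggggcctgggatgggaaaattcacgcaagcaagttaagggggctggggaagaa

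The kappaB letters stood in the windows of H2-K1 and H2-D1, as a pair of overlapping matches in each, and in 0.944% of 32851 RefSeq windows of 250 bases. The letters set for the interferon-stimulated element stood in the B2m window and in 2.98% of all windows. Looser forms of this element were not searched, so a window without these letters may still hold one. TGACG was found in 5 of the 8 member windows and in 17.8% of all, and CCAAT in 6 of 8 and in 33.8% of all. The windows of H2-K1 and H2-D1 were alike, with 87.4% identical bases over 190 aligned ones. The RefSeq starts of Psmb9 and Tap1 were 225 bases apart, and that interval held 1 CCAAT and 1 TGACG. Both matches count for both genes in the totals above. With the likeness of H2-K1 and H2-D1, the 8 member windows are therefore not independent of each other. These matches describe letters in a window, with no measurement of binding in these libraries.

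The classical heavy chains H2-K1 and H2-D1 present peptides to CD8+ T cells. H2-K1 (chromosome 17, 33996017 to 34000347, minus strand) stood at 343, 407, 263, 261 and 407 CPM in WT replicates 1 to 5 and at 513, 438, 438, 605 and 606 CPM in cKO replicates 1 to 5. Every cKO library lay above every WT library, with WT replicates 3 and 4 lowest of all. The mean rose from 336 ± 72.7 to 520 ± 84.0 CPM (SD, n = 5), a log2 fold change of 0.63 (SE 0.15, adjusted p = 0.0116 by edgeR). It missed the threshold when WT replicates 3 and 4 were both left out, with a log2 fold change of 0.43 and an adjusted p of 0.0520 by edgeR.

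H2-D1 (chromosome 17, 35262730 to 35267499, plus strand) stood at 259, 309, 216, 206 and 330 CPM in WT replicates 1 to 5 and at 390, 291, 310, 363 and 387 CPM in cKO replicates 1 to 5. The groups overlapped, since cKO replicate 2 lay below WT replicates 2 and 5 and cKO replicate 3 below WT replicate 5. H2-D1 had a log2 fold change of 0.40 (SE 0.14), and the adjusted p of 0.0488 by edgeR lay just under the threshold. The call was lost when any 1 of WT replicates 1, 3 and 4 or cKO replicates 1, 3, 4 and 5 was left out, with adjusted p by edgeR between 0.0519 and 0.119. RSEM divides reads between these close relatives, whose transcripts were 88.2% identical over 1513 aligned bases, so the 2 values are less certain apart than together.

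H2-T3 encodes the heavy chain of the thymus leukaemia antigen, a non-classical molecule of the small intestinal epithelium that binds CD8alpha homodimers. H2-T3 (chromosome 17, 36185572 to 36190287, minus strand) stood at 78.0, 99.3, 60.5, 56.1 and 74.4 CPM in WT replicates 1 to 5 and at 132, 106, 111, 126 and 129 CPM in cKO replicates 1 to 5. The genotypes did not overlap, though WT replicate 2 came close to cKO replicate 2. It had a log2 fold change of 0.71 (SE 0.14, adjusted p = 0.00423 by edgeR). Its closest heavy chain, H2-K1, was 78.6% identical over 948 aligned bases.

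B2m, the light chain that every class I complex needs, was the most abundant member. B2m (chromosome 2, 122147686 to 122153083, plus strand) stood at 414, 452, 309, 283 and 471 CPM in WT replicates 1 to 5 and at 664, 586, 522, 706 and 722 CPM in cKO replicates 1 to 5. All cKO libraries exceeded all WT libraries. Its level rose from 386 ± 84.9 to 640 ± 84.4 CPM (SD, n = 5), with a log2 fold change of 0.73 (SE 0.15, adjusted p = 0.00505 by edgeR). B2m and H2-T3 kept their calls under each of 22 alternative settings, with adjusted p of at most 0.0176 for B2m and 0.0150 for H2-T3.

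Tap1 and Tap2 form the transporter that carries peptides into the endoplasmic reticulum, and Tapbp encodes tapasin. Tap1 (chromosome 17, 34187553 to 34197225, plus strand) stood at 33.8, 30.8, 21.1, 20.5 and 23.9 CPM in WT replicates 1 to 5 and at 38.7, 24.2, 34.0, 30.5 and 36.1 CPM in cKO replicates 1 to 5. The groups overlapped widely, with cKO replicate 2 among the WT libraries, and the log2 fold change of 0.33 (SE 0.16) missed the threshold (adjusted p = 0.150 by edgeR). Tap2 (chromosome 17, 34203527 to 34216321, plus strand) stood at 18.0, 18.8, 15.7, 12.9 and 14.8 CPM in WT replicates 1 to 5 and at 28.1, 16.1, 21.4, 28.1 and 26.4 CPM in cKO replicates 1 to 5. Apart from cKO replicate 2, all cKO libraries lay above the WT libraries.

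The log2 fold change of Tap2 was 0.58 (SE 0.15, adjusted p = 0.0161 by edgeR). The difference between Tap1 and Tap2 was not shown, since the ratio of these 2 transcripts was not among those that differed between the genotypes. Tapbp (chromosome 17, 33915899 to 33929292, plus strand) stood at 132, 134, 111, 95.9 and 119 CPM in WT replicates 1 to 5 and at 178, 126, 148, 170 and 152 CPM in cKO replicates 1 to 5. Again only cKO replicate 2 fell within the WT range, and the gene overlaps Zbtb22 on the same strand, so reads could be shared. The log2 fold change of Tapbp was 0.38 (SE 0.11, adjusted p = 0.0206 by edgeR), and it missed the threshold without cKO replicate 1 (adjusted p = 0.0537 by edgeR).

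Psmb8 and Psmb9 encode the inducible catalytic subunits that replace Psmb5 and Psmb6 in the immunoproteasome. Psmb8 (chromosome 17, 34197721 to 34201454, plus strand) stood at 67.1, 72.3, 44.8, 41.9 and 68.3 CPM in WT replicates 1 to 5 and at 86.6, 47.2, 67.1, 67.5 and 70.1 CPM in cKO replicates 1 to 5. The WT libraries fell into 3 higher and 2 lower values, and 3 of the cKO libraries lay among the higher WT ones. Psmb8 had a log2 fold change of 0.20 (SE 0.19, adjusted p = 0.449 by edgeR).

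Psmb9 (chromosome 17, 34181987 to 34187764, minus strand) stood at 42.1, 45.1, 27.2, 29.6 and 42.6 CPM in WT replicates 1 to 5 and at 47.1, 28.5, 44.9, 31.6 and 35.9 CPM in cKO replicates 1 to 5. The 2 genotypes covered about the same range. The log2 fold change was 0.01 (SE 0.18, adjusted p = 0.972 by edgeR), and its sign turned in 9 of 22 alternative settings, among them scaling by library size alone, where it was -0.12. Tap1 and Psmb9 overlap at their starts on opposite strands, and the strand setting of the counting is not given in the sources used here.

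Nlrc5, the transactivator of class I genes, was the lowest member. Nlrc5 (chromosome 8, 94434356 to 94527272, plus strand) stood at 5.50, 3.38, 2.0, 1.84 and 2.98 CPM in WT replicates 1 to 5 and at 3.30, 2.06, 2.97, 4.62 and 4.16 CPM in cKO replicates 1 to 5. The highest value of all was a WT library and so was the lowest. The log2 fold change of 0.13 (SE 0.30, adjusted p = 0.782 by edgeR) was smaller than its error, and its sign turned in 6 of 22 alternative settings.

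Levels of different genes were compared in TPM, which divides by transcript length. In WT crypts B2m was highest at 649 ± 114 TPM, followed by H2-K1 at 289 ± 48.4 TPM and H2-D1 at 190 ± 27.2 TPM (SD, n = 5), and the libraries of these neighbours did not overlap. Tapbp, Psmb8, Psmb9 and H2-T3 came next with means of 61.4, 60.5, 59.3 and 47.8 TPM and overlapping libraries. Tap1 at 14.5 TPM, Tap2 at 8.10 TPM and Nlrc5 at 1.38 TPM were lowest and stood apart from each other in WT crypts. In cKO crypts H2-T3 had a mean of 73.9 ± 8.61 TPM, next to Tapbp at 74.9 ± 12.1 TPM and above Psmb8 at 63.5 ± 15.4 and Psmb9 at 58.2 ± 12.7 TPM. These 4 genes still overlapped in their libraries, as did Tap1 and Tap2 in cKO crypts.

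Ratios of 2 members within a library do not depend on how libraries are scaled, and all 45 pairs were compared by two-sided exact permutation tests with Benjamini-Hochberg adjustment over the pairs. This family was chosen after values of these data were known. The ratio differed between the genotypes in 9 pairs, each without overlap and each at the smallest p that 5 against 5 libraries allow (0.00794, adjusted 0.0397). Pairs of other genes were not compared, so the pair counts here have no share over all genes beside them. As single genes, 19.6% of all tested did not overlap between the genotypes. Whether members differ from other genes in this respect was not tested. Of the 8 ratios of a heavy chain or B2m to Psmb8 or Psmb9, 5 were among them. The log2 ratio of B2m to Psmb9 went from 3.37 ± 0.11 to 4.11 ± 0.41 with the deletion (SD, n = 5), and that of H2-T3 to Psmb9 from 0.98 ± 0.16 to 1.70 ± 0.29. Those of H2-K1 to Psmb9, H2-T3 to Psmb8 and B2m to Psmb8 differed by 0.63, 0.52 and 0.54.

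Within the heavy chains and B2m, 2 of 6 ratios differed, as H2-D1 fell by 0.32 on the log2 scale relative to H2-T3 and by 0.34 relative to B2m. The remaining 2 pairs were H2-T3 with Tap1 and with Tapbp, where the log2 ratio was higher by 0.40 and 0.35 in cKO crypts. No pair with Nlrc5 or Tap2 was among the 9. Without WT replicates 3 and 4, 0 of the 45 pairs passed. With 5 against 3 libraries the smallest exact permutation p is 0.0357, which passes this adjustment only if most pairs reach it. In that setting 15 pairs did not overlap, each at that p (adjusted 0.107).

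**Figure D2:**
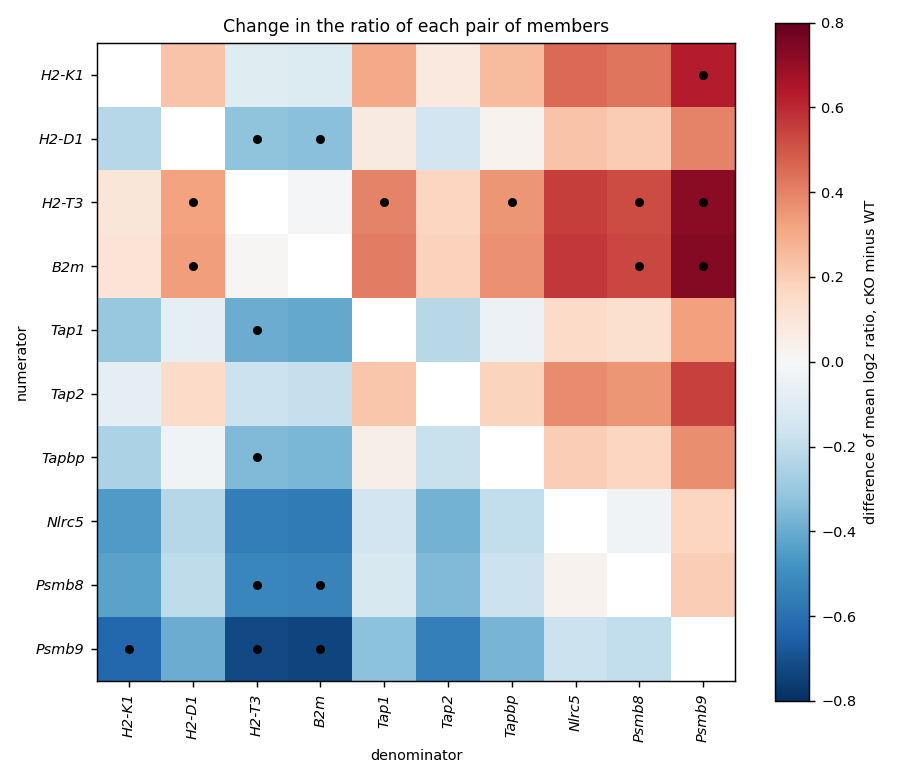
Difference between cKO and WT crypts in the mean log2 ratio of each member (row, numerator) to each other member (column, denominator), in red where the ratio was higher in cKO crypts and blue where it was lower. Dots mark the 9 of 45 pairs with an adjusted exact permutation p of 0.0397, which appear once on each side of the diagonal. The rows of H2-T3 and B2m are darkest red against Psmb9, followed by Nlrc5, where no dot stands, and Psmb8.

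The share of H2-K1 in the summed TPM of H2-K1 and H2-D1 was 61.4, 61.9, 58.9, 59.6 and 59.0% in WT replicates 1 to 5 and 62.1, 65.4, 63.8, 67.7 and 66.3% in cKO replicates 1 to 5. Every cKO library lay above every WT library, by a narrow margin for cKO replicate 1. The mean went from 60.2 ± 1.41% to 65.1 ± 2.16% (SD, n = 5, two-sided exact permutation p = 0.00794, the smallest possible). Since RSEM assigns the reads of this pair, the share also depends on that assignment. As a share of expected counts the difference was 3.83 percentage points (exact permutation p = 0.0238). The log2 ratio of the expected counts of the 2 genes overlapped between the genotypes and did not pass among the 45 pairs (exact permutation p = 0.0238, adjusted 0.0893).

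The inducible subunits did not take a detectably larger share of their subunit pairs. Psmb8 made up 33.0 ± 5.59% of the TPM of Psmb8 and Psmb5 in WT crypts and 38.7 ± 4.62% in the cKO group (SD, n = 5, exact permutation p = 0.119, adjusted 0.179 over 3 pairs). Psmb9 made up 22.5 ± 2.86% of its pair with Psmb6 in WT crypts and 23.8 ± 3.50% in the cKO group (exact permutation p = 0.548, adjusted 0.548). Psmb10, the inducible partner of Psmb7, made up 54.8 ± 3.21% and 58.6 ± 2.79% (exact permutation p = 0.103, adjusted 0.179). In each of the 3 pairs the libraries of the genotypes overlapped, and in each cKO replicate 2 was the lowest cKO library.

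**Figure D3:**
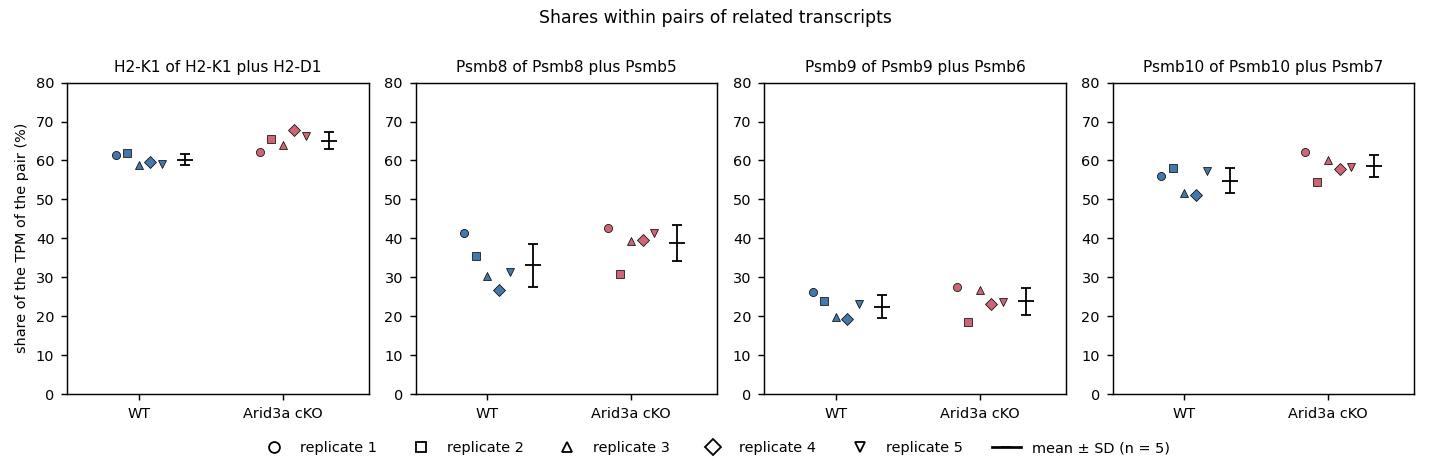
Share of the first gene in the summed TPM of each pair (y axis, percent, from 0) in the 5 WT (blue) and 5 Arid3a cKO (red) libraries, with the shape giving the replicate number and the bar the mean ± SD. The share of H2-K1 does not overlap between the genotypes (60.2 against 65.1%), whereas the shares of Psmb8, Psmb9 and Psmb10 do.

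Other genes of the pathway were read from the same fit. The counts in this and the later lists stand beside 15.6% of all genes higher and 12.7% lower. Of 17 further class I and class I-like heavy chains 15 were tested, of which 6 were higher and 1 was lower in cKO crypts. H2-Q1 and H2-Q2 had log2 fold changes of 1.76 (SE 0.41) and 1.52 (SE 0.29), with adjusted p by edgeR of 0.0133 and 0.00574. H2-Q2 stood at 133, 177, 75.3, 57.4 and 105 CPM in WT replicates 1 to 5 and at 307, 277, 237, 378 and 371 CPM in cKO replicates 1 to 5, with no overlap. Its part of all heavy chain counts was 11.5% in WT and 20.02% in cKO crypts.

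The minor heavy chain gene H2-Bl had a log2 fold change of 1.35, H2-T23, whose product Qa-1 is a ligand of NKG2 receptors, of 0.82, H2-T22 of 0.50, and Fcgrt, which encodes the neonatal Fc receptor for IgG, of 0.46. H2-T22 and Fcgrt did not pass without WT replicates 3 and 4, and Fcgrt did not without cKO replicate 1 or 5. H2-M3, which presents N-formylated peptides, fell by 0.41 on the log2 scale, a call that was lost when any of 7 libraries was left out. H2-Q4, H2-Q6, H2-Q7, H2-Q10, H2-T10, H2-T24, Cd1d1 and Mr1 did not pass, with log2 fold changes from -0.53 for H2-Q6 to 0.28 for H2-Q10. H2-M2 and Cd1d2 did not pass the filter on low counts.

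Because reads are divided among these paralogs, the counts of 16 heavy chain genes were also summed. The sum was 1010, 1207, 741, 703 and 1083 CPM in WT replicates 1 to 5 and 1641, 1332, 1323, 1772 and 1777 CPM in cKO replicates 1 to 5. The genotypes did not overlap, and the mean log2 difference was 0.74 (two-sided exact permutation p = 0.00794, the smallest possible). Without WT replicates 3 and 4 the difference was 0.50.

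Beside 15.6% of all genes higher and 12.7% lower, 0 of 12 genes of folding and peptide trimming were higher and 2 were lower by edgeR. Their median log2 fold change was -0.03. At an unadjusted p under 0.05, and by DESeq2, 1 was higher, and by limma-voom 0. Thop1, a cytosolic peptidase, fell by 0.49 and Blmh, bleomycin hydrolase, by 0.19 on the log2 scale. The chaperones Calr, Canx and Pdia3, the folding sensor Uggt1, the tapasin relative Tapbpl, and the peptidases Erap1, Lnpep, Tpp2, Lap3 and Npepps did not pass, with values from -0.16 for Calr to 0.41 for Lap3. Without WT replicates 3 and 4 neither Thop1 nor Blmh passed (adjusted p = 0.0548 and 0.121 by edgeR), and the call of Blmh was lost without any 1 of WT replicates 3 to 5 or cKO replicates 1, 4 and 5.

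Of 6 further genes of the inducible proteasome, its assembly and the PA28 and PA200 activators, 0 were higher and 1, Psme3, was lower, with the same counts by DESeq2, by limma-voom and at an unadjusted p under 0.05. Psme3 fell by 0.20 on the log2 scale, a call lost when any of 8 libraries was left out, whereas Psmb10 at 0.14, Psme1 at 0.06, Psme2 at 0.18, Pomp at 0.14 and Psme4 at 0.06 did not pass. Of the 3 constitutive catalytic subunits 0 passed by edgeR, DESeq2 or limma-voom and 1 at an unadjusted p under 0.05, with log2 fold changes of -0.21 for Psmb5, -0.05 for Psmb6 and -0.04 for Psmb7. Of 11 other subunits of the core particle 0 passed by any of these tests, Psma7 having the smallest p (log2 fold change -0.17, adjusted p = 0.219 by edgeR), and of 21 of the regulatory particle 1 passed, Psmd2, which fell by 0.20 and lost its call without any of 8 libraries. For this list 2 were lower by DESeq2, 1 by limma-voom and 6 at an unadjusted p under 0.05, with 0 higher in each, and edgeR called 0 to 3 when single libraries were left out and 0 without WT replicates 3 and 4.

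**Figure D4:**
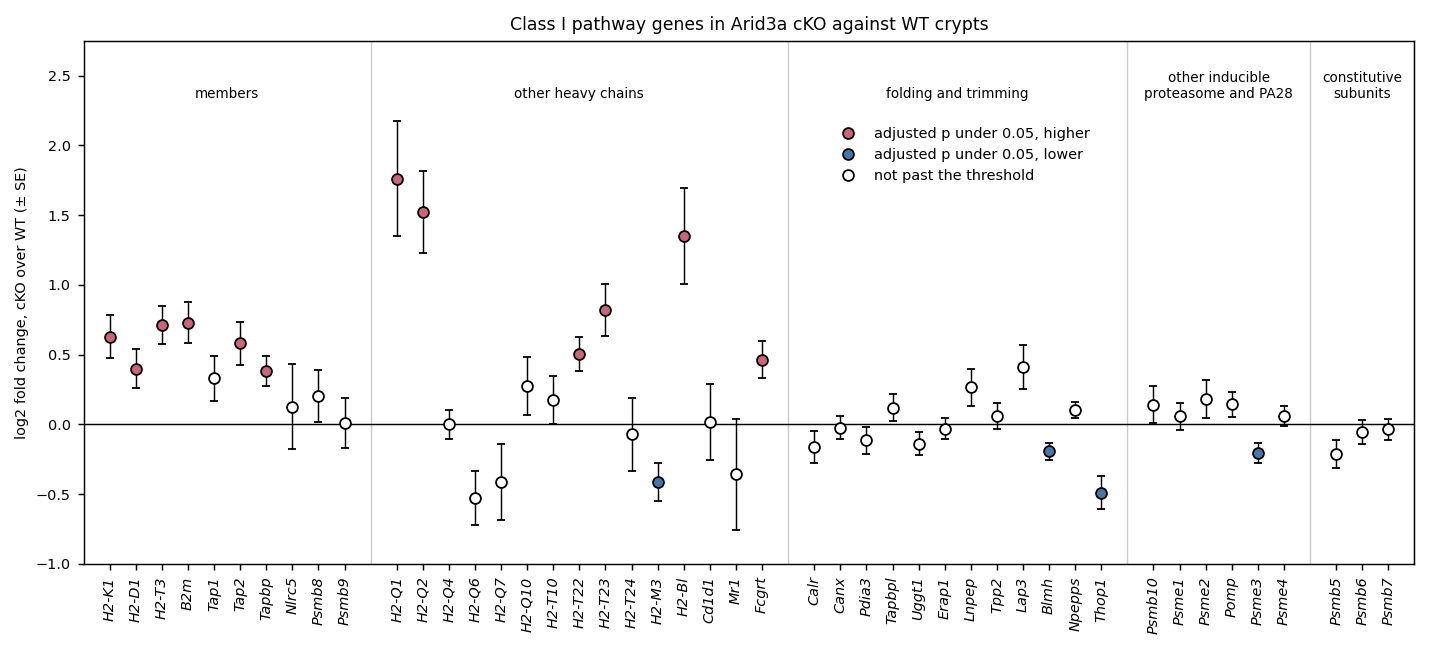
Log2 fold change, cKO over WT crypts, with its SE (y axis) for the 10 members and 36 tested genes of the same pathway, with red for higher and blue for lower at an adjusted p under 0.05 by edgeR and white for the rest. Red points lie among the heavy chains, B2m, Tap2 and Tapbp, whereas the proteasome genes lie near 0.

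Of 18 transcription factors known to act on class I promoters, 4 were higher and 1 was lower, near the 28.3% of all genes called in either direction. Stat2 and Irf9, partners in the interferon-stimulated complex ISGF3, had log2 fold changes of 0.51 and 0.43, and Irf2, which binds the same elements, had 0.38. Relb, an NF-kappaB subunit, was higher by 0.30 and Nfya, a subunit of the CCAAT-binding factor, fell by 0.29, both chosen after their values were seen. Irf1 at 0.20 (adjusted p = 0.276 by edgeR) did not pass. Irf2 was the only regulator of the 18 still called without WT replicates 3 and 4, and leaving out single libraries gave 3 to 6 calls, with 3 without WT replicates 3 or 4 or cKO replicates 1, 4 or 5.

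Of 12 interferon receptor and signalling genes, 7 were higher and 0 were lower, with a median log2 fold change of 0.45. Usp18, a brake on type I interferon receptors, rose by 1.59 (SE 0.27) from a low level of 1.31 ± 0.50 to 3.94 ± 1.08 CPM (SD, n = 5). Ifnlr1, the receptor chain for type III interferon, had a log2 fold change of 0.81, and the kinase gene Jak2 had 0.78. These 3 genes did not overlap between the genotypes and passed without WT replicates 3 and 4. Transcripts of 6 interferons were under the floor of 3 counts in all libraries, with at most 1 count each for Ifng and Ifnk and 0 for Ifnb1, Ifnl2, Ifnl3 and Ifne, so that a difference was not detectable at this depth.

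Of 19 tested genes of the interferon-gamma response, Zbp1 and Igtp were higher, with log2 fold changes of 0.95 and 0.92. The chemokine gene Cxcl9, a low transcript at 8 to 74 counts per library, fell by 1.35 on the log2 scale. These 3 calls stand beside 28.3% of all genes called in either direction. Only Cxcl9 passed without WT replicates 3 and 4, and single libraries decided all 3 calls, Zbp1 being lost without WT replicate 3 or cKO replicates 1 or 5, Cxcl9 without WT replicates 1 or 5 or cKO replicates 3 or 4, and Igtp without any of 7. Of 10 MHC class II genes 0 were higher and 1, the transactivator gene Ciita, was lower, with a log2 fold change of -1.01, and the median was -0.93. Its call was lost without cKO replicate 1 (adjusted p = 0.0567 by edgeR) and without WT replicates 3 and 4, while DESeq2 called 2 class II genes lower and limma-voom 3, against 5 at an unadjusted p under 0.05, with 0 higher in each.

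The members varied together between libraries of the same genotype. WT replicates 3 and 4 were the 2 lowest WT libraries in 9 of the 10 members, the exception being Tap2, and this order was found in 14.9% of all genes tested. In the cKO crypts, replicate 2 was the lowest library in 8 of the 10 members, against 17.0% of all genes, the exceptions being H2-K1 and B2m. After the mean of each genotype was removed, log2 CPM of H2-K1 over the 10 libraries had a Pearson correlation of 0.96 with B2m and 0.93 with H2-D1, but 0.51 with Psmb9. Psmb8 had one of 0.90 with Psmb9 and 0.91 with Tapbp. These values share libraries and are given as a description.

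Outside the members, the genes most like H2-K1 by that measure, over 10 libraries, were Osgin1 at 0.99, Ech1 at 0.96 and Cers2, Abhd6 and Tmem98 between 0.95 and 0.96. Among those most like Psmb8 were Irf1 at 0.98, Entpd2 and Zbp1 at 0.97 and Irgm2 at 0.96. For Nlrc5 they were Cd226 at 0.97, Capn3 at 0.96, Ccdc88b, P2rx7 and Apol7e. They were the top of 14719 genes compared, with no test.

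Markers of other cells moved with genotype in these crypts. Enterocyte markers summed to 1191 to 6011 CPM in WT and 7473 to 14232 CPM in cKO crypts without overlap, and all 8 markers were higher, with a median log2 fold change of 1.84. Apoa4 and Lct had log2 fold changes of 2.06 and 1.92. Single libraries left 3 to 8 of these calls, with 5 without WT replicate 3, WT replicate 5 or cKO replicate 4 and 3 without cKO replicate 5. WT replicates 3 and 4 were the 2 lowest WT libraries in 7 of the 8 markers, as they were for the members. Paneth cell markers moved the other way, with 4 of 5 lower, led by Mptx2, Mmp7 and Itln1. Single libraries left 3 to 4 of these Paneth calls, and 2 stayed without WT replicates 3 and 4. In that setting Mptx2 had an adjusted p of 0.114 by edgeR. The part of these shifts in the class I values was not tested, and in bulk crypts a change in the number of cells of a type and in RNA per cell cannot be told apart.

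Blood cells carry class I genes as well. Of 13 leukocyte and T cell markers 0 were higher and 1, Cd4, was lower, and their summed level overlapped, with 109 to 330 CPM in WT and 134 to 330 CPM in cKO crypts. WT replicates 3 and 4 were the 2 lowest WT libraries in this sum too. B and plasma cell markers summed to 169 to 284 CPM in WT and 38.8 to 106 CPM in cKO crypts, with 4 of 7 lower, led by Jchain, Igkc and Igha. Of 9 myeloid markers, C1qa, C1qb and C1qc were lower, with 1 to 5 calls when single libraries were left out and 0 without WT replicates 3 and 4. Of 7 tested stromal and endothelial markers, Pecam1 was lower, with 1 to 4 calls when single libraries were left out and 0 without WT replicates 3 and 4, where Pecam1 had an adjusted p of 0.0712 by edgeR. No marker list of blood or stromal cells had a gene that was higher in cKO crypts by edgeR, DESeq2 or limma-voom, or at an unadjusted p under 0.05 by edgeR, and no such marker list summed to 0 in any library.

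**Figure D5:**
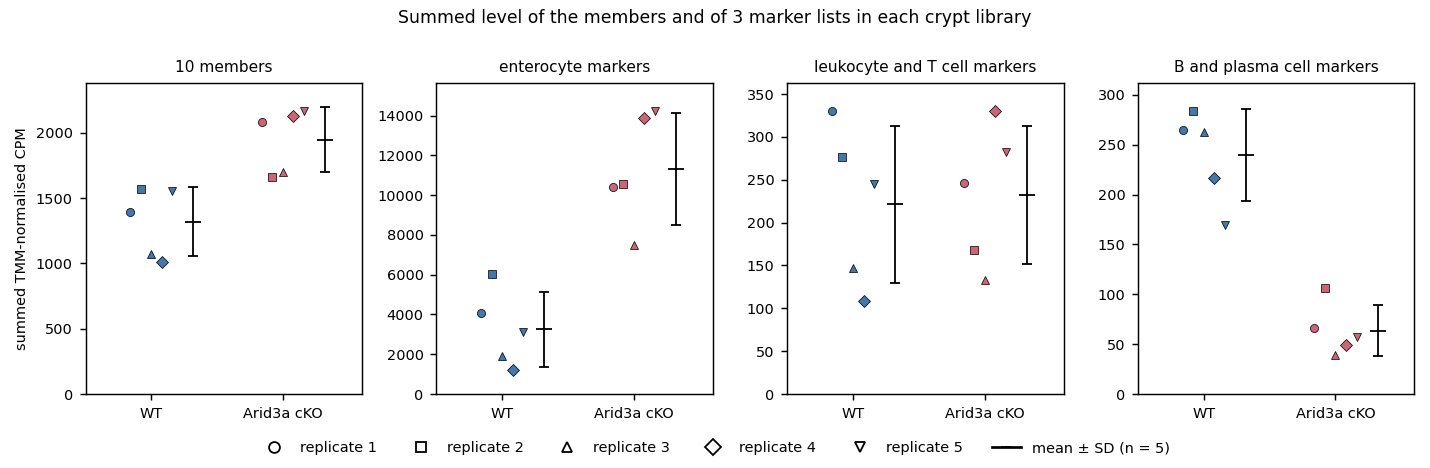
Summed TMM-normalised CPM (y axis, from 0) of the 10 members, 8 enterocyte markers, 13 leukocyte and T cell markers and 7 B and plasma cell markers in the 5 WT (blue) and 5 Arid3a cKO (red) libraries, with the shape giving the replicate number and the bar the mean ± SD. The members and the enterocyte markers are higher in all cKO libraries, the leukocyte sums overlap (109 to 330 against 134 to 330 CPM), and the B and plasma cell sums are lower in all cKO libraries.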

How the data were processed

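Polyadenylated RNA of crypts from 5 WT and 5 cKO mice was analysed, with groups taken from the labels. The authors aligned reads to GRCm38 with STAR, estimated Ensembl gene counts with RSEM (nf-core/rnaseq) and deposited, without normalization between libraries, the expected count, TPM and FPKM of each gene. The deposited FPKM values were not analysed. Expected counts were rounded and tested in R 4.3.3 with edgeR 4.0.16 (TMM, filterByExpr with a minimum count of 10, robust quasi-likelihood test, Benjamini-Hochberg threshold 0.05), and CPM come from edgeR. P-values set the difference between the genotypes against the spread between these animals. Sums, shares and ratios were compared by two-sided exact permutation tests (pseudocount 0.5 on log2 scales), and transcripts were aligned with BLAST 2.17.0. At these depths 1 CPM is about 30 counts, so counting error matters chiefly for low transcripts. Among the members this is Nlrc5, with 55 to 158 counts per library. Some other named genes were as low, such as Cxcl9 with 8 to 74 and Usp18 with 23 to 168 counts. Intervals for counting error alone were not used.

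The members and lists were chosen with earlier results of these data known. Named genes were the members, Arid3a, every tested gene of the heavy chain, folding and trimming, inducible proteasome and constitutive subunit lists, up to 3 called genes with the largest change in each other list or, where none passed, the gene with the smallest p, and the 5 genes most like H2-K1, Nlrc5 and Psmb8; some genes that meet this rule are not reported here but stay in the counts and tests. Alternatives were scaling by library size or RLE factors, DESeq2 1.42.0, dropping the filter or asking 10 counts of every library, limma-voom and limma-trend of limma 3.58.1 on log2 TPM (pseudocounts 0.1 and 1), effective length as an offset, a replicate block, 1 surrogate variable (sva 3.50.0), leaving out each library, and leaving out WT replicates 3 and 4. The edgeR, DESeq2 and limma-voom fits were tested on simulated counts, with changes larger than those of the members.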

Additional observations from a re-analysis of the deposited data

Results flagged for a closer look

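Within groups of 5 libraries, 2 of 130 groups held a library far from the other 4, and chance alone flags about 1 group in 20. Ciita, the MHC class II transactivator gene, stood at 14.6 CPM in WT replicate 1, above the other WT libraries. C1qa, a macrophage complement gene, stood at 5.03 CPM in cKO replicate 4, above the other cKO libraries. No member of the class I set was flagged.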

How the results depend on the processing

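Calls among the members numbered 4 to 6 when single libraries were left out, 2 without WT replicates 3 and 4, and 3 by limma-trend on TPM with either pseudocount, against 6. Over all genes the calls numbered 3007 to 4684 with single libraries left out and 2143 without WT replicates 3 and 4. With library size alone the median log2 fold change of all genes moved to -0.16 and the share of calls that were higher from 55.1 to 27.7%, and the members then had 4 calls and a median of 0.27. H2-D1 lost its call in 14 of 22 alternatives, Tapbp in 5, Tap2 in 4 and H2-K1 in 1, while Tap1, Nlrc5, Psmb8 and Psmb9 were called in none. Nlrc5 had a log2 fold change of -0.21 without WT replicates 3 and 4, -0.00035 with library size alone, -0.0094 and -0.014 by limma-trend, and -0.015 to 0.43 with single libraries left out, below 0 without WT replicate 4 or cKO replicate 4. Psmb8 had -0.031 without WT replicates 3 and 4. Psmb9 had -0.20 without them, -0.12 with library size alone, -0.014 with 1 surrogate variable, -0.0323 and -0.0317 by limma-trend, and -0.083 to 0.0901 with single libraries left out, below 0 without WT replicates 3 or 4 or cKO replicates 1 or 3. Genes called over the other lists numbered 49, 26 without WT replicates 3 and 4, and 75 with library size alone. The share of Psmb8 was higher in cKO crypts by 4.08 to 7.75 and that of Psmb10 by 2.80 to 4.73 percentage points with single libraries left out, with an exact permutation p under 0.05 before adjustment for Psmb8 without WT replicate 1 or cKO replicate 2 and for Psmb10 without cKO replicate 2, but adjusted over the 3 pairs of 0.143, 0.0714 and 0.0714, and that of Psmb9 fell by 0.53 points without WT replicates 3 and 4. Member ratios that passed numbered 9, and 0 without those libraries, where the smallest p passes only if most pairs reach it. The ratio and share settings without WT replicates 3 and 4, and the TPM ratios, were chosen after seeing the data. The cause of these changes was not tested.

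No pairing by replicate number was seen, as deviations of same-numbered libraries correlated between -0.20 and 0.10. This check cannot exclude that animals were paired. With the number as a block, 5 members passed, Tap2 being lost at an adjusted p of 0.0570 by edgeR, and 3052 genes in all.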

Other observations

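Natural killer cells and some T cells read class I-like stress ligands through NKG2D and classical or Qa-1 molecules through other receptors. Of 8 genes of this kind in the tables, 3 were tested, Ulbp1, Raet1e and Klrd1, and 0 passed by edgeR, also at an unadjusted p under 0.05, or by DESeq2 or limma-voom. Klrd1, which encodes the CD94 chain that binds Qa-1, had the smallest p, with a log2 fold change of 0.48 (adjusted p = 0.236 by edgeR). The summed level of the 8 genes was 8.09 to 9.60 CPM in WT and 6.77 to 11.2 CPM in cKO crypts and overlapped. Of 6 goblet cell markers 0 passed by edgeR, with 1 higher and 1 lower at an unadjusted p under 0.05 and 1 higher by DESeq2. Clca1 had the smallest p, with a log2 fold change of 0.45 (adjusted p = 0.0767 by edgeR).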
